A study of Mus musculus with 9 samples.

Results

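The genes described here are the Ly6 antigens Ly6a, Ly6c1, Ly6c2 and Ly6e together with Pecam1, 5 of the 23234 genes listed for each library. They were taken by symbol and had been picked with their levels in these libraries known, so their differences between groups are given as descriptions without p-values, and how many passed a threshold is given beside the share of all genes, with nothing drawn from it. The cells were group 2 innate lymphoid cells, or ILC2s, which reside in tissues, lack antigen receptors and make type 2 cytokines. All of them came from fat-associated lymphoid clusters, small immune cell aggregates in the visceral fat, of wild-type mice of the C57BL/6 strain, and all were cultured for 48 h with IL-33, the alarmin that activates ILC2s. The 3 groups had 3 libraries each and received IL-33 with IFN-γ, IL-33 with IL-27, or IL-33 alone, each cytokine at 10 ng/ml (called here the IFN-γ, IL-27 and IL-33 libraries). Levels are in FPKM, fragments per kilobase of transcript scaled to the number of mapped fragments, and can be compared between genes because they are scaled to transcript length.

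Ly6 proteins are small, disulfide-bonded surface proteins held in the membrane by a glycosylphosphatidylinositol (GPI) anchor, and several mouse Ly6 genes are known to respond to interferons. Ly6a encodes Sca-1, long used to sort haematopoietic stem cells and also present on activated lymphocytes. Ly6c1 and Ly6c2 encode Ly-6C, the antigen that marks inflammatory monocytes and memory T cells. Ly6e encodes a widely expressed antigen of immature thymocytes that binds the placental fusion protein syncytin-A and limits coronavirus entry. Pecam1 encodes CD31, an immunoglobulin-family adhesion molecule of endothelial cells, platelets and leukocytes that binds itself across cell contacts and carries inhibitory tyrosine motifs in its tail. IFN-γ and IL-27 bind separate receptors, both of which signal through Janus kinases, and the IL-27 receptor contains gp130.

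The 4 Ly6 members lie in one cluster on chromosome 15 (build mm9, GENCODE vM1 gene models, protein coding), in the order Ly6e (15:74785481-74790335, plus strand), Ly6a (15:74825308-74828064, minus strand), Ly6c1 (15:74875447-74879260, minus strand) and Ly6c2 (15:74938590-74942114, minus strand). Ly6i, a family gene that is not a member of the set, lies between Ly6e and Ly6a (15:74810242-74813860, minus strand). Pecam1 lies on chromosome 11 (11:106515531-106611942, minus strand).

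How far the levels of Ly6c1 and Ly6c2 can be separated depends on how much sequence they share, so the ends of both coding sequences are shown as the GENCODE vM1 transcripts give them, 5′ to 3′, with the bases that differ in capitals. Positions are counted from 1 at the first base of the start codon.
Ly6c1 bases 1 to 100: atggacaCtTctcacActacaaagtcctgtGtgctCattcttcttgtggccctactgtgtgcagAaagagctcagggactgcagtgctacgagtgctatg
Ly6c2 bases 1 to 100: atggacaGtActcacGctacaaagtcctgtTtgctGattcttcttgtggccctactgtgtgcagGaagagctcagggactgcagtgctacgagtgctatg
Ly6c1 bases 237 to 396: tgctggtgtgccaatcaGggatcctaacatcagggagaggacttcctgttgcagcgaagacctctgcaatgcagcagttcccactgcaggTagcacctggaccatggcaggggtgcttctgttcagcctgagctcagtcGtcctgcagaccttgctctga
Ly6c2 bases 237 to 396: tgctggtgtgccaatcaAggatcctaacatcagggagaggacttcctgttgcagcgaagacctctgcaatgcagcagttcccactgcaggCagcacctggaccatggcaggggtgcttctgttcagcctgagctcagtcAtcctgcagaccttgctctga
The first 100 bases hold 6 of the differences and the last stretch 3, and the bases between them are the same in both. Each has 396 bases, of which 387 (97.7%) were identical, with 9 substitutions, no gap and a longest identical run of 188 bases. Of the 50-base stretches of all their annotated transcripts, 252 were in both genes, which was 31.9% of the stretches of Ly6c1 and 33.7% of those of Ly6c2. Fragments from those stretches cannot be given to either gene by sequence alone, so the division of FPKM between Ly6c1 and Ly6c2 is uncertain, and their sum is given beside each. The other members were more distinct. Ly6a shared 4.42% of its stretches with other genes, which were Ly6c2 and Ly6i, and Ly6e and Pecam1 shared 0 of 2395 and 0 of 4245. In coding sequence Ly6a was 82.0% identical to Ly6c1, 81.7% to Ly6c2 and 86.4% to Ly6i, whereas Ly6e was 52.6% identical to Ly6a, 49.9% to Ly6c1 and 50.6% to Ly6c2.

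Upstream sequences of Ly6c1 and Ly6c2, the 2 of 5 members in the RefSeq promoter table used (build GRCm38.p6), are shown because the coding copies are so alike. Both are on the minus strand, 5′ to 3′, with runs of at least 12 bases that the other sequence also holds in capitals. Ly6c1 covers 15:75048921-75049087 and Ly6c2 covers 15:75112067-75112221, and each ends before the outermost annotated start of its gene.
Ly6c1 upstream: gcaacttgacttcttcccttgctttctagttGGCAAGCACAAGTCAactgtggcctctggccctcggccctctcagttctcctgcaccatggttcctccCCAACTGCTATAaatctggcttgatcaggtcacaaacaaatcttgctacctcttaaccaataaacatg
Ly6c2 upstream: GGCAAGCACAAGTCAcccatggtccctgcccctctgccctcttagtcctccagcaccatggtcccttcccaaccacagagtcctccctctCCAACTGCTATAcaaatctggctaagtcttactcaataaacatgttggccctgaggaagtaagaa
Such runs made up 27 of the 167 bases shown for Ly6c1 and 27 of the 155 bases shown for Ly6c2. Shorter shared runs, and runs cut short by the end of a stretch, were not counted, so these numbers do not measure how alike the upstream regions are. The 250 bases before each annotated start of both genes were searched on both strands for TTCNNNGAA, the pattern of STAT dimer sites, and for the core of interferon-stimulated response elements, GAAA repeated after 2 bases of any kind or, on the reverse strand, TTTC repeated in the same way. Neither pattern was in any of these windows. Among all 32851 windows of this length in the table, 7.02% held the first and 2.98% the second.

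The 9 libraries had FPKM sums of 628625 to 672534 and 10504 to 11004 genes with at least 1 FPKM, and the spacing of low values put the depth near 885000 to 984000 fragments a library. GEO's labels do not say whether the replicates were separate cultures or animals, so every SE and p-value measures the spread between these libraries, which may be technical. All 12 ILC2 markers examined were listed. Their summed level, which was mostly the cytokines Il5 and Il13, was 5810 to 9900 FPKM in the IFN-γ, 12300 to 13900 FPKM in the IL-27 and 14800 to 22300 FPKM in the IL-33 libraries. With IFN-γ, 1 marker rose (Areg), 3 fell (Il5, Il13 and Il2ra) and 8 did not pass in limma, and with IL-27, 1 rose (Areg) and 11 did not pass. With the replicate number as a block, 1 rose and 4 fell with IFN-γ, and 3 rose and 1 fell with IL-27. Gata3, the lineage transcription factor, averaged 221 FPKM with IFN-γ, 275 FPKM with IL-27 and 205 FPKM with IL-33. The block added the fall of Il1rl1 with IFN-γ and, with IL-27, the rise of Thy1 and Icos and the fall of Il2ra, and the markers named here were picked after their values were seen. The sum of 7 fibroblast markers stood apart in the replicate 3 libraries, at 81.2 FPKM with IFN-γ, 58.0 FPKM with IL-27 and 33.6 FPKM with IL-33, against 2.70 to 17.1 FPKM in the other 6 libraries. Not all 7 did so. Lum was highest in replicate 1 of each group, at 4.86 FPKM with IFN-γ, 6.62 FPKM with IL-27 and 16.8 FPKM with IL-33. In replicate 3 it had 2.1, 1.0 and 3.2 FPKM, and with IL-27 Dcn was level over the replicates. The part of fibroblasts in the members' levels was not tested, and values without the replicate 3 libraries are given with each member. In bulk RNA, fewer cells of a type and less RNA per cell cannot be told apart.

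All 5 members had higher FPKM with IFN-γ and with IL-27 than with IL-33 alone, with no overlap between the libraries of the groups. Of all genes tested, 11.9% lay wholly above IL-33 with IFN-γ and 8.29% with IL-27, and the members were picked with these values known. Both comparisons use the same 3 IL-33 libraries. Ly6a, the most abundant member, was nearly 3-fold higher with either cytokine, and Ly6c1 was more than 3-fold higher with either. With IFN-γ, Ly6c2 had the largest difference on the log scale and Ly6e the smallest. For Pecam1 and Ly6c2 the IFN-γ libraries also stood wholly above the IL-27 libraries, as they did for 5.5% of all genes tested. Differences are given as log2 fold changes, differences of group means of log2(FPKM + 1) with the standard error (SE) of limma, a linear model fitted over all genes.

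**Figure D1:**
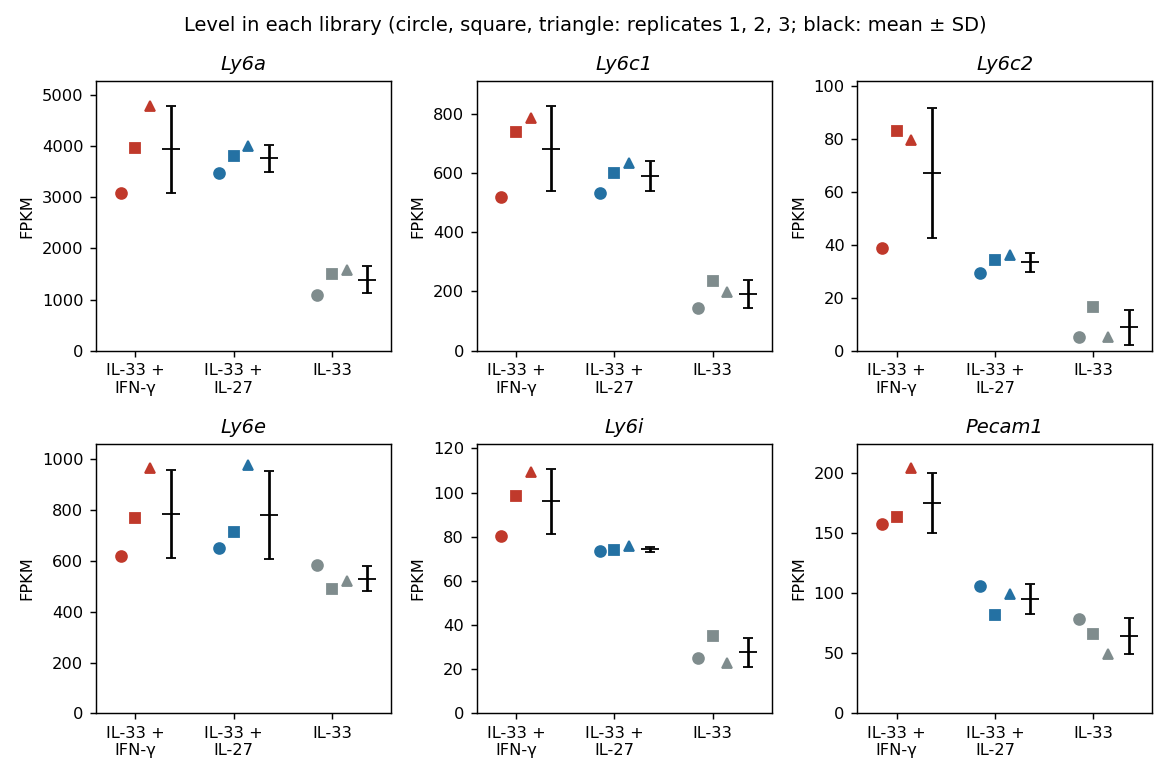
Level of the 5 members and of Ly6i in FPKM (vertical axes, linear from 0) in each library of the IFN-γ, IL-27 and IL-33 groups, from left to right, with circle, square and triangle for replicates 1, 2 and 3 and black bars for the mean ± SD of 3 libraries. In every panel the IFN-γ and the IL-27 points lie above the IL-33 points, and IFN-γ points lie above all IL-27 points in Ly6c2, Ly6i and Pecam1.

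Ly6a had 3074, 3966 and 4775 FPKM in the IFN-γ libraries, 3478, 3806 and 3996 FPKM in the IL-27 libraries and 1094, 1499 and 1583 FPKM in the IL-33 libraries (replicates 1, 2 and 3). Every library with IFN-γ or IL-27 was above every library with IL-33 alone, and the IFN-γ and IL-27 libraries overlapped. By rank among all listed genes it stood between 9 and 18 in the 6 libraries with a second cytokine, against 60 to 90 in the 3 with IL-33 alone, so the transcript of this stem cell antigen was among the most abundant in these lymphocytes. The log2 fold change was 1.5 ± 0.20 (SE) with IFN-γ (2.82-fold) and 1.45 ± 0.20 with IL-27 (2.73-fold), n = 3 libraries a group. Leaving out each library in turn gave 1.33 to 1.66 with IFN-γ and 1.28 to 1.55 with IL-27, and without all 3 replicate 3 libraries the values were 1.45 with IFN-γ and 1.51 with IL-27.

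Ly6c1 had 521, 740.0 and 788 FPKM in the IFN-γ libraries, 534, 601 and 635 FPKM in the IL-27 libraries and 143, 235 and 197 FPKM in the IL-33 libraries. Again the groups with a second cytokine overlapped each other and lay wholly above IL-33 alone. Its log2 fold change was 1.83 ± 0.22 with IFN-γ (3.56-fold) and 1.64 ± 0.22 with IL-27 (3.12-fold), and without the replicate 3 libraries it was 1.75 with IFN-γ and 1.62 with IL-27.

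Ly6c2, its near-identical copy, was far lower, at 38.9, 82.8 and 79.6 FPKM in the IFN-γ libraries, 29.4, 34.3 and 36.3 FPKM in the IL-27 libraries and 5.11, 16.4 and 5.0 FPKM in the IL-33 libraries. The 3 groups did not overlap, with IFN-γ highest and IL-33 lowest, and IL-33 replicate 2 was about 3 times the other libraries of its group. The log2 fold change was 2.91 ± 0.42 with IFN-γ (7.51-fold) and 1.99 ± 0.42 with IL-27 (3.98-fold). At the estimated depth the IL-33 values rested on about 3.65, 12.8 and 3.61 fragments, so the baseline of Ly6c2 is poorly known. Without IL-33 replicate 2 the value with IL-27 was 2.5, the highest of the 9 omissions, which gave 1.73 to 2.5, and with IFN-γ the omissions gave 2.65 to 3.42. Without the replicate 3 libraries it was 2.49 with IFN-γ and 1.67 with IL-27.

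Ly6c2 took 6.95%, 10.1% and 9.18% of the summed FPKM of the Ly6c pair in the IFN-γ libraries, 5.22%, 5.40% and 5.41% in the IL-27 libraries and 3.45%, 6.50% and 2.48% in the IL-33 libraries. The IFN-γ shares lay above all others, while the IL-27 shares lay within the range of the IL-33 shares. Ly6c1 thus held most of the pair's FPKM in all 9 libraries, between 8.94 and 39.4 times the FPKM of Ly6c2. Summing the copies removes the uncertain division, and the log2 fold change of the sum was 1.90 ± 0.23 with IFN-γ and 1.66 ± 0.23 with IL-27, close to Ly6c1 alone.

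**Figure D2:**
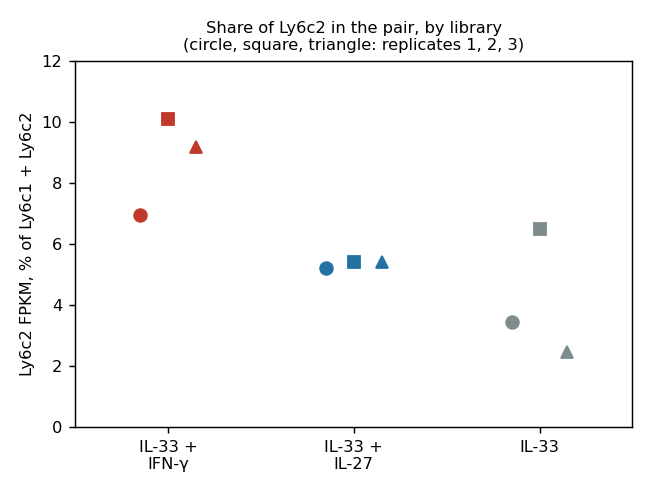
FPKM of Ly6c2 as a percentage of the summed FPKM of Ly6c1 and Ly6c2 (vertical axis, linear from 0) in each library of the IFN-γ, IL-27 and IL-33 groups, from left to right, with circle, square and triangle for replicates 1, 2 and 3. The IFN-γ libraries lie at 6.95% to 10.1%, above the IL-27 libraries at 5.22% to 5.41% and the IL-33 libraries at 2.48% to 6.50%.

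Ly6e had 619, 767 and 966 FPKM in the IFN-γ libraries, 650.5, 713 and 975 FPKM in the IL-27 libraries and 583, 488 and 518.5 FPKM in the IL-33 libraries. With IL-33 alone it was the second most abundant member, and the gap to the other groups was narrow, since the lowest IFN-γ library lay just above the highest IL-33 library. Its log2 fold change was 0.54 ± 0.21 with IFN-γ (1.46-fold) and 0.54 ± 0.21 with IL-27 (1.45-fold). The replicate 3 libraries held its highest values with IFN-γ and with IL-27, and without all 3 replicate 3 libraries the log2 fold change was 0.37 with IFN-γ and 0.35 with IL-27.

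Pecam1 had 158, 164 and 204 FPKM in the IFN-γ libraries, 106, 81.7 and 99.3 FPKM in the IL-27 libraries and 78.3, 66.1 and 49.1 FPKM in the IL-33 libraries. The 3 groups did not overlap, and the IL-27 libraries lay much closer to the IL-33 libraries than the IFN-γ libraries did. The log2 fold change was 1.44 ± 0.21 with IFN-γ (2.72-fold) and 0.58 ± 0.21 with IL-27 (1.49-fold), and without the replicate 3 libraries it was 1.15 with IFN-γ and 0.36 with IL-27. CD31 is best known from endothelium, and the summed level of 12 endothelial markers was 20.4 to 30.5 FPKM in the IFN-γ, 16.3 to 25.3 FPKM in the IL-27 and 15.8 to 19.6 FPKM in the IL-33 libraries. Most of that sum was Eng, a co-receptor for TGF-β, which averaged 22.3 FPKM with IFN-γ, 18.9 FPKM with IL-27 and 11.1 FPKM with IL-33. Like Pecam1 it lay above IL-33 in every library with IFN-γ or IL-27, as did 11.9% of all genes tested with IFN-γ and 8.29% with IL-27. With IL-27 the gap was small, 13.28 FPKM in the lowest IL-27 library against 13.23 FPKM in the highest IL-33 library. The log2 fold change of Eng was 0.94 with IFN-γ (limma adjusted p = 0.0932, 0.0285 with the replicate block) and 0.70 with IL-27 (adjusted p = 0.379). Egfl7, the other tested marker, went the other way and lay wholly below IL-33 in both comparisons. It had 1.05 to 4.90 FPKM with IFN-γ, 2.0 to 2.91 FPKM with IL-27 and 5.2 to 6.36 FPKM with IL-33. Its means were 2.65 FPKM with IFN-γ, 2.35 FPKM with IL-27 and 5.79 FPKM with IL-33. It passed in neither (limma adjusted p = 0.226 with IFN-γ and 0.395 with IL-27). Among the defining endothelial markers, Kdr, Tie1, Emcn and Cldn5 were listed at 0 in all 9 libraries and Cdh5 reached 0.3 FPKM, and 9 of the 12 stayed below 1 FPKM throughout. The part of endothelial cells in the level of Pecam1 was not tested.

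Among all 11014 genes tested, those averaging 1 FPKM or more, 2.19% passed as higher and 0.717% as lower with IFN-γ (limma, Benjamini-Hochberg adjusted p under 0.05). With IL-27, 0.908% passed as higher and 0.118% as lower. Libraries with IFN-γ lay wholly above those with IL-33 in 11.9% of genes and wholly below in 8.65%, and libraries with IL-27 in 8.29% and 5.72%. All 5 members were among the genes tested, and all 5 lay wholly above in both comparisons. Past the threshold were 4 of 5 with IFN-γ, all but Ly6e, and Ly6a and Ly6c1 with IL-27, where Ly6c2 was added once the replicate number entered the fit as a block. The call of Ly6a with IL-27 was lost without IL-27 replicate 3 (log2 fold change 1.40), and Ly6c2 with IL-27 was called without IL-33 replicate 2. Because the members were picked on these values, their counts carry no weight against that background. The median log2 fold change of the members was 1.5 with IFN-γ and 1.45 with IL-27, and that of all genes was 0.03 with IFN-γ and 0.01 with IL-27.

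Same-numbered libraries varied together, as described under processing, and within each number all members were higher with the added cytokine. With IFN-γ the 3 log2 differences were 1.49, 1.40 and 1.59 for Ly6a and 1.86, 1.65 and 1.99 for Ly6c1 (replicates 1, 2 and 3), an even difference over the replicates. Ly6c2 ranged more widely, at 2.71, 2.27 and 3.75. For Pecam1 they were 1.00, 1.30 and 2.03, the last against the lowest IL-33 library. Ly6e had 0.09, 0.65 and 0.90, so that replicate 1 showed almost no difference. With IL-27 the differences were 1.67, 1.34 and 1.34 for Ly6a and 1.89, 1.35 and 1.68 for Ly6c1. They were 2.31, 1.02 and 2.64 for Ly6c2, smallest in replicate 2, whose IL-33 library was the high one. The same differences were 0.16, 0.55 and 0.91 for Ly6e and 0.43, 0.30 and 1.00 for Pecam1. Every one of the 30 differences between a second cytokine and IL-33 alone was above 0. That sign was already fixed by the lack of overlap between the groups, on whose values the members were picked. Each IL-33 library also enters several of the differences.

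**Figure D3:**
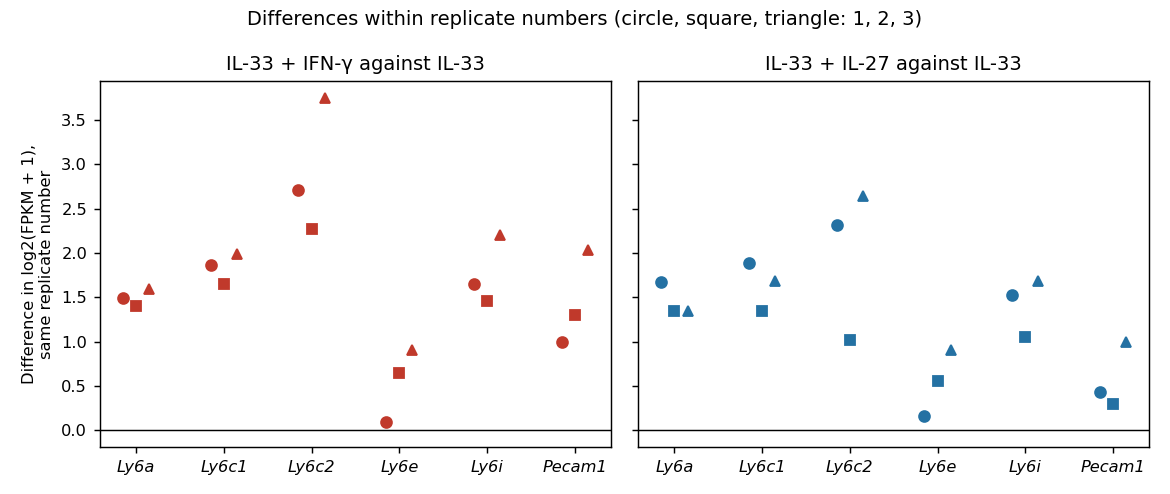
Difference in log2(FPKM + 1) between libraries of the same replicate number (vertical axes) for the 5 members and Ly6i, for IFN-γ against IL-33 on the left and IL-27 against IL-33 on the right, with circle, square and triangle for replicates 1, 2 and 3. All points lie above the line at 0, and those of Ly6e in replicate 1 lie closest to it, at 0.09 with IFN-γ and 0.16 with IL-27.

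The direct comparison of the IFN-γ with the IL-27 libraries asked which member levels depended on which second cytokine was given. Ly6a had a log2 difference of 0.05 ± 0.20, Ly6c1 of 0.19 ± 0.22 and Ly6e of 0.01 ± 0.21, each within 1 SE of 0. Pecam1 was higher with IFN-γ by 0.87 ± 0.21 (1.82-fold) and Ly6c2 by 0.92 ± 0.42 (1.89-fold), and these were the members whose IFN-γ and IL-27 libraries did not overlap. Omitting each library in turn gave 0.75 to 0.94 for Pecam1 and 0.73 to 1.26 for Ly6c2, and the summed Ly6c pair had 0.24 ± 0.23. Within replicate numbers 1, 2 and 3 the difference was 0.57, 1.00 and 1.03 for Pecam1 and 0.39, 1.25 and 1.11 for Ly6c2, against -0.18, 0.06 and 0.26 for Ly6a. Over all genes, 5.5% had IFN-γ libraries wholly above IL-27 libraries and 4.03% wholly below. No gene passed in this comparison (0% in limma), 483 had an unadjusted p under 0.05, and 6 genes passed as higher and 14 as lower with the replicate block, none of them a member.

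By level, Ly6a was the highest member in all 9 libraries and Ly6c2 the lowest in 9 of 9. In the IL-33 libraries the order of mean FPKM was Ly6a (1392 ± 262, SD, n = 3), Ly6e (529.9 ± 48.1, n = 3), Ly6c1 (192 ± 46.4, n = 3), Pecam1 (64.5 ± 14.7, n = 3) and Ly6c2 (8.83 ± 6.53, n = 3), with no overlap between neighbours. The same order held with IL-27, where Ly6e averaged 779.5 ± 172 FPKM (SD, n = 3) and Ly6c1 589.9 ± 51.5 FPKM (n = 3) and their libraries did not overlap. With IFN-γ, Ly6e at 784 ± 174 FPKM (n = 3) and Ly6c1 at 683 ± 142 FPKM (n = 3) overlapped, though Ly6e was the higher of the 2 within each replicate number.

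The rest of the Ly6 and uPAR family, which shares the Ly6 domain, was mostly too low to test. Of 29 family genes examined besides the members, 27 were listed and 3 averaged at least 1 FPKM. Ly6i, the neighbour of Ly6a, had 80.2, 98.5 and 109 FPKM in the IFN-γ libraries, 73.5, 73.8 and 75.7 FPKM in the IL-27 libraries and 24.9, 35.2 and 23.0 FPKM in the IL-33 libraries. It rose with both, by 1.77 ± 0.20 on the log2 scale with IFN-γ (limma adjusted p = 0.00152) and 1.42 ± 0.20 with IL-27 (adjusted p = 0.00888). Its passing with IL-27 was lost in replicates 1 and 2 alone (adjusted p = 0.0906). Plaur, the urokinase receptor, had 2.54, 1.58 and 0 FPKM in the IFN-γ libraries, 2.6, 1.56 and 0.80 FPKM in the IL-27 libraries and 23.9, 8.59 and 4.20 FPKM in the IL-33 libraries. It lay below IL-33 in all libraries with a second cytokine but passed in neither comparison without the block (log2 fold change -2.36 ± 0.63, limma adjusted p = 0.0873 with IFN-γ, and -2.08 ± 0.63, adjusted p = 0.247 with IL-27), whereas with the block it fell with both (adjusted p = 0.00381 with IFN-γ and 0.0103 with IL-27). With IFN-γ it also passed without IL-33 replicate 3 (limma adjusted p = 0.0498). Ly6g5b, a family gene of the major histocompatibility region, averaged 0.762 FPKM with IFN-γ, 3.03 FPKM with IL-27 and 0.400 FPKM with IL-33 and passed in neither (limma adjusted p = 0.837 with IFN-γ and 0.401 with IL-27).

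No tested gene that flanks the Ly6 cluster passed. Of the 5 nearest listed genes on each side, Ly6f, Ly6h and Gpihbp1 among them, 8 were at 0 FPKM in every library, and 1 was tested, the zinc finger gene Zfp41. Its log2 fold change was 0.28 with IFN-γ (limma adjusted p = 0.752) and 0.78 with IL-27 (adjusted p = 0.467), with an unadjusted p under 0.05 for IL-27 only. Around Pecam1, 9 of 10 neighbours were tested and none passed, with 0 at an unadjusted p under 0.05 for IFN-γ and 1 for IL-27 in limma, and 0 with the replicate block. Their log2 fold changes were -0.23 to 0.79 with IFN-γ and -0.56 to 1.23 with IL-27. They include Icam2, another adhesion molecule of endothelium and leukocytes, at -0.23 with IFN-γ (limma adjusted p = 0.611) and -0.24 with IL-27 (adjusted p = 0.754).

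Assembly of the GPI anchor, which the Ly6 proteins need to reach the surface, showed no gene past the threshold. Of 26 tested genes of this pathway 0 passed in limma with either cytokine, 8 had an unadjusted p under 0.05 with IFN-γ and 3 with IL-27. Over all genes tested, 1696 (15.4%) had one with IFN-γ and 1047 (9.51%) with IL-27. With the replicate block 1 passed as higher and 2 as lower with IFN-γ, namely Pigp (log2 fold change 0.97), Piga (-0.89) and Pigl (-0.67), named after their values were seen. The median log2 fold change was -0.08 with IFN-γ and -0.20 with IL-27, beside 0.03 with IFN-γ and 0.01 with IL-27 over all genes. Pigs and Pigt, subunits of the transamidase that attaches the anchor and the most abundant genes of the list, did not pass with IFN-γ, at log2 fold changes of -0.39 for Pigs (limma adjusted p = 0.293) and -0.49 for Pigt (adjusted p = 0.225).

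Other GPI-anchored surface proteins showed higher levels for 2 of 8 tested genes with IFN-γ and for 1 with IL-27, none lower. Over all genes tested, 2.19% passed as higher with IFN-γ and 0.908% with IL-27. The median log2 fold change of the list was 0.45 with IFN-γ, where all genes had 0.03, and 0.75 with IL-27, where all genes had 0.01. Bst2, which encodes tetherin, an interferon-induced protein that holds budding virus at the cell surface, averaged 199.9 FPKM with IFN-γ, 161 FPKM with IL-27 and 82.9 FPKM with IL-33. It rose by 1.26 ± 0.17 on the log2 scale with IFN-γ (limma adjusted p = 0.00379) and by 0.95 ± 0.17 with IL-27 (adjusted p = 0.034), and the call with IL-27 was lost in 8 of 9 omissions, all but that of IFN-γ replicate 1 (adjusted p of 0.0541 to 0.148). Cd52, a short heavily glycosylated lymphocyte antigen, was close to Ly6a in level, at 3277 FPKM with IFN-γ, 2410.0 FPKM with IL-27 and 1354 FPKM with IL-33. It rose with IFN-γ (log2 fold change 1.26 ± 0.21, limma adjusted p = 0.0114), and with IL-27 the value was 0.82 ± 0.21 (adjusted p = 0.147, 0.00469 with the replicate block). With that block 3 of the 8 passed with IL-27, the third being Thy1 (log2 fold change 0.67), a T cell and ILC antigen named after its value was seen. Over all 11014 genes tested, the block passed 371 as higher with IL-27.

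Genes tied to Pecam1 function cover its binding partners, its phosphatases and related inhibitory receptors. Of 12 tested, 0 passed as higher and 1 as lower with IFN-γ, and 0 passed with IL-27 in limma. Over all genes tested, 2.19% passed as higher and 0.717% as lower with IFN-γ, and 1.03% passed with IL-27. An unadjusted p under 0.05 was held by 3 of the 12 with IFN-γ and 1 with IL-27. The shares of all genes were 15.4% with IFN-γ and 9.51% with IL-27. Lilrb4, an inhibitory receptor of the immunoglobulin family, had 4.99, 13.2 and 14.4 FPKM in the IFN-γ libraries and 51.9, 32.2 and 60.3 FPKM in the IL-33 libraries (log2 fold change -2.12 ± 0.39, limma adjusted p = 0.0198). It missed the threshold without IL-33 replicate 1 or replicate 3 (adjusted p of 0.0589 to 0.074), in replicates 1 and 2 alone (0.0763) and in a fit of the 2 groups alone (0.0599). Klrg1, an inhibitory receptor of ILC2s, averaged 214 FPKM with IFN-γ, 253 FPKM with IL-27 and 215 FPKM with IL-33, and Inpp5d, the lipid phosphatase SHIP1, had log2 fold changes of -0.30 with IFN-γ (limma adjusted p = 0.439) and -0.05 with IL-27 (adjusted p = 0.966). With the replicate block 1 passed as higher and 3 as lower with IFN-γ, adding Cd72 (1.19), Cd200r1 (-0.72) and Itgb3 (-1.20), named after their values were seen. Over all 11014 genes tested, the block passed 717 as higher and 513 as lower with IFN-γ.

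Of 7 tested genes of endothelial junctions and adhesion, 1 rose and 1 fell in each comparison with IL-33. The shares of all genes tested were 2.19% higher and 0.717% lower with IFN-γ, and 0.908% higher and 0.118% lower with IL-27. Icam1, the ligand of the integrin LFA-1, averaged 93.1 FPKM with IFN-γ, 59.1 FPKM with IL-27 and 25.1 FPKM with IL-33. Its log2 fold change was 1.85 ± 0.22 with IFN-γ (limma adjusted p = 0.00216) and 1.17 ± 0.22 with IL-27 (adjusted p = 0.0445), and the call with IL-27 was lost in 8 of 9 omissions, all but that of IL-27 replicate 3 (0.0655 to 0.159). Cd34, a sialomucin of blood progenitors and endothelium, moved opposite to Ly6a and Pecam1. It had 0.40 to 3.75 FPKM in the IFN-γ libraries, 0.40 to 2.06 FPKM in the IL-27 libraries and 30.4 to 35.6 FPKM in the IL-33 libraries. It fell by 3.77 ± 0.46 on the log2 scale with IFN-γ (limma adjusted p = 0.00221) and by 4.19 ± 0.46 with IL-27 (adjusted p = 0.00231). Cd47, a broadly expressed signal against phagocytosis, had log2 fold changes of 0.40 with IFN-γ (limma adjusted p = 0.356) and 0.22 with IL-27 (adjusted p = 0.789).

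**Figure D4:**
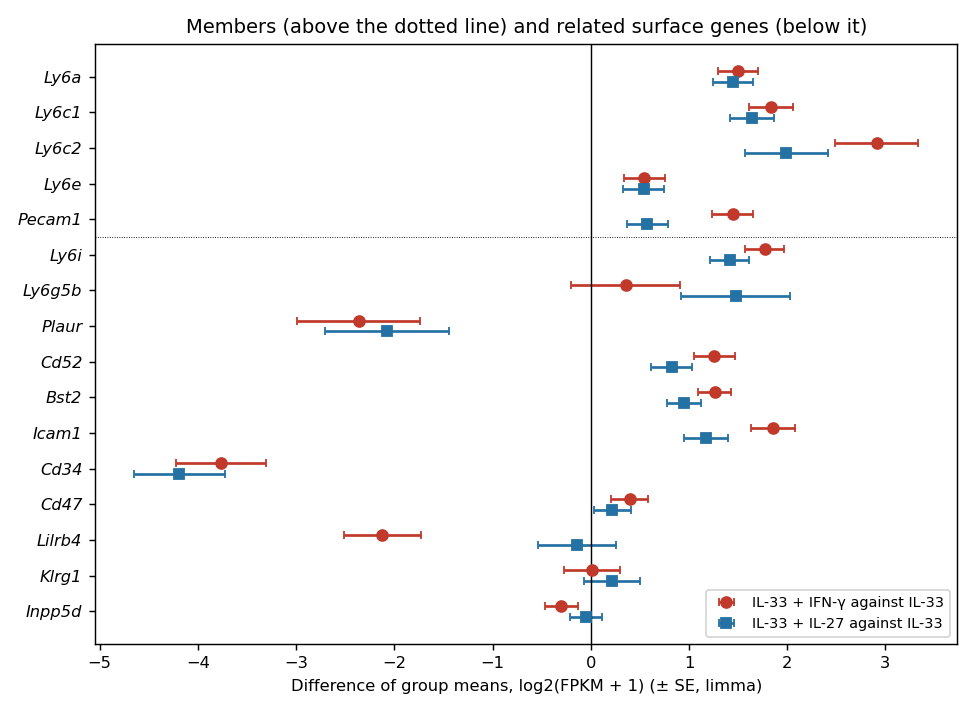
Log2 fold changes against IL-33 (horizontal axis, differences of group means of log2(FPKM + 1)) of the 5 members, above the dotted line, and of related surface genes, below it, for IFN-γ (red circles) and IL-27 (blue squares), with bars for ± 1 SE of limma. All members lie right of 0, Cd34 lies far left of it at -3.77 with IFN-γ and -4.19 with IL-27, and the points of Pecam1 lie apart at 1.44 with IFN-γ and 0.58 with IL-27.

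Among genes that act downstream of the receptors of both cytokines, Irf1 and Irf9 rose with both. Irf1, an interferon-induced transcription factor, rose by 3.49 ± 0.41 with IFN-γ (limma adjusted p = 0.00182) and 3.07 ± 0.41 with IL-27 (adjusted p = 0.00648). Irf9, the DNA-binding subunit of the complex that type I interferons activate, rose by 1.41 ± 0.23 with IFN-γ (limma adjusted p = 0.00894) and 1.51 ± 0.23 with IL-27 (adjusted p = 0.0134). Socs1, which inhibits the kinases of both receptors, rose with IFN-γ (2.71 ± 0.27, limma adjusted p = 0.000707). Stat2 rose with IFN-γ too (1.69 ± 0.35, limma adjusted p = 0.0308), a call lost in 5 of 9 omissions, those of each IFN-γ library and of IL-33 replicates 1 and 2 (0.0699 to 0.115). Irf9 with IL-27 missed the threshold when IL-27 replicate 1 or 2, or IL-33 replicate 1 or 2, was left out (0.0501 to 0.0672). Beside these, the replicate block added Il27ra with both, the fall of Socs3 with IFN-γ (log2 fold change -1.83), and Stat2 and Socs1 with IL-27. Il27ra and Socs3 were named after their values were seen.

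The genes whose pattern over the 9 libraries was most like each member were ranked by Pearson's r of log2(FPKM + 1) among 8432 genes averaging 5 FPKM or more. These r values describe libraries that share 3 groups and carry no test. Ly6a was most like Gm12250 (r = 0.994), Zbp1 (0.992), a sensor of nucleic acids, and Igtp (0.990), an immunity-related GTPase. Ly6c1 was most like Gm12250 (0.987), Olfr56 (0.986) and Igtp (0.985). For Ly6c2 the nearest were Ly6i (0.977), Gbp3 (0.962), a guanylate-binding protein, and Ptpn18 (0.960), a tyrosine phosphatase. Ly6e had other nearest genes, Ero1lb (0.974), an oxidase of the endoplasmic reticulum, Ms4a6c (0.958) and Wls (0.958), which carries Wnt proteins to the surface. Nearest to Pecam1 were Twsg1 (0.966), a secreted binder of bone morphogenetic proteins, Tmem176a (0.965) and Socs1 (0.962). Socs1 averaged 40.7 FPKM with IFN-γ, 15.1 FPKM with IL-27 and 5.5 FPKM with IL-33. Among the members themselves, Ly6a and Ly6c1 were most alike (0.991), and Ly6e and Pecam1 least alike (0.673).

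Markers of other cells that carry these antigens were summed in each library. Monocytes express Ly6c2, and the defining monocyte and macrophage markers Csf1r and Fcgr1 were listed at 0 in all 9 libraries, with Cd14 at most 0.728 FPKM and Itgam at most 0.903 FPKM. Cd68, a further marker of that type, had 4.68 to 18.8 FPKM with IFN-γ, 1.16 to 14.4 FPKM with IL-27 and 1.16 to 10.0 FPKM with IL-33. It passed in limma with neither cytokine, and Emr1 reached 2.34 FPKM and Lyz2 2.3 FPKM. The sum of 9 listed markers of that type was 40.9 to 149 FPKM in the IFN-γ, 62.5 to 256 FPKM in the IL-27 and 27.6 to 118 FPKM in the IL-33 libraries, highest in replicate 3 of each group. Its largest part in each library was Ccr2, a chemokine receptor of Ly-6C-high monocytes, at 19.2, 48.1 and 135.9 FPKM in the IFN-γ libraries, 56.2, 88.9 and 238.5 FPKM in the IL-27 libraries and 21.0, 36.3 and 106 FPKM in the IL-33 libraries. Within each replicate number it was higher with IL-27 than with IL-33 (log2 fold change 1.27, limma adjusted p = 0.695, 0.00373 with the replicate block), and with IFN-γ the log2 fold change was 0.21 (limma adjusted p = 0.942). The part of such cells in the members' levels was not tested. Neutrophil markers summed to at most 1.20 FPKM with IFN-γ, 0 FPKM with IL-27 and 0.40 FPKM with IL-33, with S100a8 and S100a9 at 0 throughout. Markers of plasmacytoid dendritic cells summed to 180 to 215 FPKM with IFN-γ, 148 to 192 FPKM with IL-27 and 78.3 to 94.6 FPKM with IL-33. Nearly all of that was Bst2, and Siglech, which defines those cells, reached at most 1.10 FPKM. T cell markers summed to 81.0 to 156 FPKM with IFN-γ, 109 to 214 FPKM with IL-27 and 95.2 to 165 FPKM with IL-33. Most of that was Cd3g and Lat. Cd3g averaged 48.9 FPKM with IFN-γ, 60.8 FPKM with IL-27 and 50.1 FPKM with IL-33, and Lat 60.5, 79.7 and 67.85 FPKM. Cd8b1 reached 7.15 FPKM and Cd3e 2.51 FPKM, and Cd4 and Cd8a stayed below 1 FPKM in all libraries. None of the 3 tested T cell markers passed in limma with either cytokine. B cell markers summed to 20.3 to 84.8 FPKM with IFN-γ, 33.2 to 57.0 FPKM with IL-27 and 33.7 to 40.3 FPKM with IL-33. Cd79b made up nearly all of that sum.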

How the data were processed

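RNA was sequenced from 9 libraries of cultured mouse ILC2s, 3 in each of 3 groups taken from the sample titles. The submitters' processing notes name TopHat2 2.0.8, Bowtie2 2.1.0 and Cufflinks 2.1.1, and build mm9, and the gene annotation is not given in the sources used here. The authors deposited 1 FPKM value per gene and library. The unit is not written in the tables and was inferred from Cufflinks being named, its column header and decimal values that are never negative. The replicate 3 tables hold 1 decimal and commas that group digits, which were removed, and a repeated header line was dropped. Spreadsheet software had turned 25 symbols into dates, which were kept as features without a name. Gene positions and transcripts came from GENCODE vM1 (mm9), where 21640 symbols (93.1%) had a single match, and upstream sequences from RefSeq (GRCm38.p6).

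Genes averaging 1 FPKM or more (11014, 47.4% of those listed) were fitted as log2(FPKM + 1) with limma 3.58.1 in R 4.3.3 over all 9 libraries, with an intensity trend and no covariate. P-values were two-sided and adjusted by the Benjamini-Hochberg method within a comparison, with a threshold of 0.05. Folds are on the log2(FPKM + 1) scale and understate changes of low genes. The fit was tested on simulated data with known changes. Tables and figures used pandas 2.3.3, numpy 2.4.6 and matplotlib 3.10.9 in Python 3.11.15. No read counts were analysed here, and a few items are not reported here. Depth was estimated from the spacing of low values, given transcript lengths of an annotation that may not be the authors', so it is approximate, and fragments behind a value are estimates without intervals.

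Deviations from the group means correlated at 0.128 to 0.367 between the 9 pairs of libraries with the same number and at -0.298 to -0.0251 between the 18 other pairs. Deviations cancel out within a group, so positive values in the same-number pairs make the other pairs negative on average. The negative values are therefore not separate evidence. From the positive values, the numbers in the titles were taken to pair the libraries. The blocked fit adds the replicate number to the model. The members and the gene and marker lists were chosen with earlier results of these data known. Of a list, called genes were named by adjusted p (at most 6) with its 2 most abundant genes, a list of up to 6 tested genes was named whole, and the 3 genes most like each member were named by Pearson's r. Alternatives were the block, other pseudocounts, filters and scalings, fits of the 2 groups compared, no intensity trend, single libraries left out, replicates 1 and 2 alone, and the Ly6c pair summed, with its blocked version added after the data were seen.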

Additional observations from a re-analysis of the deposited data

How the results depend on the processing

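With the replicate block 1230 genes passed with IFN-γ (717 higher, 513 lower), 567 with IL-27 (371 and 196) and 20 between IFN-γ and IL-27 (6 and 14), against 320, 113 and 0 without it. Beside the calls given with their results, the block changed no other call of a member. Nor did it change another call against IL-33 of a gene named from the lists of related genes. Between IFN-γ and IL-27 the block passed 1 gene of the list tied to Pecam1 function as higher. It also passed 1 gene of the list of IFN-γ and IL-27 signalling as lower. A fit of the 2 groups compared passed 187 genes with IFN-γ and 63 with IL-27, and replicates 1 and 2 alone 176 and 68. Leaving out each library in turn gave 161 to 303 genes with IFN-γ, 50 to 128 with IL-27 and 0 to 2 between them. In that direct comparison 2 genes passed with no filter on low values, with no intensity trend and with replicates 1 and 2 alone. Smaller samples have fewer degrees of freedom, and the cause of the other shifts was not tested.

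The block, the filters and the fits of the 2 groups compared cannot change a member's difference of group means, only its SE. Other pseudocounts, scalings and replicates 1 and 2 alone can change it. Member values and calls were not collected from the fit with no intensity trend. Over 15 member results and the remaining alternatives other than omissions, 1 of 135 values, the fixed ones included, moved by more than 1 SD between replicates. This was Pecam1 with IFN-γ, at 1.15 in replicates 1 and 2 alone against 1.44 in all. No member value against IL-33 fell below 0 under these alternatives. In replicates 1 and 2 alone Ly6a and Ly6c1 passed with IFN-γ and no member with IL-27. Among other genes, Icam1 with IL-27 also missed the threshold at a pseudocount of 5 (limma adjusted p = 0.0548). It did so under both scalings (0.0581 and 0.0738), with no filter (0.0586) and with no intensity trend (0.0837). Replicates 1 and 2 alone gave it 0.105, and a fit of the 2 groups 0.155. Bst2 with IL-27 missed the threshold with no intensity trend (0.0837), in a fit of the 2 groups (0.107) and in replicates 1 and 2 alone (0.13). With IFN-γ, Stat2 missed it with no filter (0.0572) and in replicates 1 and 2 alone (0.16). Irf9 missed it in replicates 1 and 2 alone, at 0.0595 with IFN-γ and 0.0561 with IL-27. Among the members, depth limits the level of Ly6c2 with IL-33 alone most.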
